A study of Homo sapiens with 6 samples.

Results

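The genes for 7 EGF-like ligands (AREG, EREG, TGFA, HBEGF, BTC, EPGN and NRG1) and 3 receptors of the ERBB family (EGFR, ERBB2 and ERBB3) were followed in breast epithelial cells depleted of PDCD4. These 10 genes, out of 34486 to which the sequenced transcripts could be assigned, were taken by name as ligand and receptor genes of cells grown with EGF. The rule for taking them uses no measured value, but the choice was made with earlier results of these data known. The 5 family genes left out, among them the tested ligand gene NRG4, are described below. For each gene the estimated read counts of its Ensembl transcripts were summed in every library. All 10 genes passed the filter on low counts and were tested.

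The cells were MCF10A, a line of human mammary epithelium that grows without limit but forms no tumours, and RNA was taken after reverse transfection with 10 nM siRNA for 48 h. In 3 libraries the siRNA was directed against PDCD4 (siPDCD4), an RNA-binding protein with tumour suppressor function, and in 3 libraries a control siRNA had been used (siCT). Both groups carry the wild-type genotype per the labels and were kept in medium with horse serum, recombinant human EGF, insulin, hydrocortisone and cholera toxin, so EGF itself was supplied to all 6 libraries' cells, and per the study's methods the medium was renewed some hours before collection. A single cell line was used, and nothing in the labels says whether the replicates were separate cultures, so the p-values below stand only for the variation among these 6 libraries, and that variation may be technical. Bulk RNA does not tell fewer expressing cells from less RNA per cell.

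Estimated counts per library lay between 13410441 and 21828931. PDCD4 stood at 9.15, 7.43 and 8.62 CPM (scaled counts, with differences in library size and transcript length taken out) in siPDCD4 against 90.4, 89.0 and 61.1 CPM in siCT, a log2 fold change of -3.25 ± 0.17 (SE). Replicate 3 of siCT had the lowest total and stood apart on the first principal component (30.6, with the other 5 libraries at or below 8.65), and for some results below the value without it is given. Of the epithelial and basal mammary markers KRT5 was abundant, between 859 and 1178 TPM (a level per transcript length, scaled within a library) in siPDCD4 and between 938 and 1206 TPM in siCT, and EPCAM was modest, between 19.2 and 25.7 TPM in siPDCD4 and between 13.0 and 19.4 TPM in siCT. Among the 10 markers of this list TP63 was higher in every siPDCD4 library than in any control (log2 fold change 0.36) and KRT6A and KRT8 were lower (-0.30 and -0.32). None of these passed in edgeR (adjusted p of 0.18, 0.32 and 0.225), and TP63 passed in DESeq2 (adjusted p = 0.0421). EPCAM had the largest log2 fold change of this list, 0.47, with groups that overlapped (adjusted p = 0.384 in edgeR). Among markers of other cell types, the leukocyte gene CD3E was at 0 in every library, PTPRC reached at most 0.06 TPM and the fibroblast gene COL1A1 at most 1.91 TPM. CD14 had 6.73, 8.40 and 8.43 TPM in siPDCD4 and 4.54, 5.68 and 4.29 TPM in siCT (adjusted p = 0.187 in edgeR). The endothelial gene PECAM1, at 0.171, 0.287 and 0.606 TPM in siPDCD4 and 0.137, 0.143 and 0.140 TPM in siCT, and the luminal genes FOXA1 and GATA3 also lay higher in every siPDCD4 library, with log2 fold changes of 1.28, 0.57 and 0.22 that did not pass (adjusted p of 0.405, 0.521 and 0.889 in edgeR). The endothelial gene KDR went the other way, at 0.0548 to 0.0786 TPM in siPDCD4 and 0.0793 to 0.105 TPM in siCT. It did not pass the filter on low counts. CDH5 and VWF reached at most 0.0243 and 0.0619 TPM, and their groups overlapped. The luminal gene ESR1 overlapped, at no more than 0.196 TPM, and PGR was at 0 in every library. The leukocyte gene LYZ overlapped as well, with a log2 fold change of -0.38 (adjusted p = 0.897 in edgeR). The part of these markers in the results below was not tested.

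EGF-like ligands are made as membrane-anchored precursors, are cut from the cell surface by ADAM proteases, and act on the cell that made them or on its neighbours. AREG, EREG, TGFA, HBEGF, BTC and EPGN encode ligands of EGFR, of which HBEGF, BTC and EREG also engage ERBB4, and NRG1 encodes a ligand of ERBB3 and ERBB4. ERBB2 has no known ligand of its own and signals as the partner of the other receptors, while ERBB3 has little kinase activity and signals in pairs with them. Active EGFR drives the RAS-ERK and PI3K-AKT pathways, and in the mammary gland amphiregulin, the product of AREG, is known as the mediator of duct growth downstream of oestrogen.

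EPGN, EREG, AREG and BTC lie side by side on chromosome 4 (GRCh38), within 486 kb between positions 74308470 and 74794523, and no other gene of the sequenced transcript set lies between them. The first 3 of these are neighbours on the same strand. EREG was called in the comparison below while AREG and EPGN were not, but a difference between these genes was not tested. The 250 bases before the start sites of the 3 genes are shown (RefSeq, GRCh38.p14, plus strand). They cover chr4:74308220-74308469 for EPGN, chr4:74364895-74365144 for EREG and chr4:74444886-74445135 for AREG, and run 5′ to 3′. Capitals mark every match on either strand to TATAAA (the core of a TATA box) and to TGACGTCA (the cyclic AMP response element). The AP-1 motif TGANTCA was searched as well and has no match in these 3.
EREG: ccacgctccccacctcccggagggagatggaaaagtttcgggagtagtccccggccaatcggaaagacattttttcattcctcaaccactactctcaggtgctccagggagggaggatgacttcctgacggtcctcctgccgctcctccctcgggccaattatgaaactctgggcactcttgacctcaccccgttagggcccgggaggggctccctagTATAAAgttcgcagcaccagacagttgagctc
AREG: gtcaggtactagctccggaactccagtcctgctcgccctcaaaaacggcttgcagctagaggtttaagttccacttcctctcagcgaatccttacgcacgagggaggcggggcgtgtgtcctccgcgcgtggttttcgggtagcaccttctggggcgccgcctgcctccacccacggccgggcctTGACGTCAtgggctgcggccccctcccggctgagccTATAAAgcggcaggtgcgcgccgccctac
EPGN: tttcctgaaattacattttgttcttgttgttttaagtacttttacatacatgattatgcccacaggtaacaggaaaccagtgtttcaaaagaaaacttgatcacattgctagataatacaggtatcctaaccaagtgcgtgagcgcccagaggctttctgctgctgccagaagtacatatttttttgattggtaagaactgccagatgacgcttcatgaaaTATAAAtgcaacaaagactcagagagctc

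TATAAA occurs in all 3 sequences, 32 bases before the start of EREG and 29 bases before those of AREG and EPGN, and is found in 10.7% of 35116 RefSeq promoter windows of this length. TGACGTCA occurs in AREG alone of the 3, 65 bases before the start, and in 1.65% of all windows. Promoter windows of 8 of the 10 genes were searched, 10 windows in all, and none of NRG1 or ERBB3. None of those of TGFA, HBEGF and BTC holds any of the 3 motifs. EGFR has 2 windows, and the second, which lies in its first intron and spans the start of the shorter transcript EGFR-205 described below, holds TATAAA at 2 places and TGANTCA at 2, the last a motif found in 6.57% of all windows. ERBB2 has TGANTCA at 1 place. A match of letters does not show that a factor binds there.

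Per transcript length, AREG was by far the most abundant of the 10 genes, followed by EGFR and EPGN. AREG had 325, 308 and 304 TPM in siPDCD4 and 234, 251 and 217 TPM in siCT. EGFR had 48.5, 46.3 and 57.6 TPM in siPDCD4 and 44.9, 47.7 and 49.8 TPM in siCT, and its range overlapped that of EPGN in both groups. ERBB2 came next, with 19.4 ± 1.75 TPM in siPDCD4 and 19.3 ± 0.759 TPM in siCT (SD, n = 3). TGFA overlapped ERBB2 in siPDCD4, at 19.5 ± 0.895 TPM, and lay below it in siCT, at 14.5 ± 0.725 TPM. EREG followed at 10.6 ± 1.84 TPM in siPDCD4 and 5.40 ± 0.404 TPM in siCT. HBEGF, NRG1 and ERBB3 lay close together between 2.26 and 5.21 TPM in siPDCD4 and between 2.11 and 3.81 TPM in siCT, and BTC was lowest in both groups, at 0.974 ± 0.142 TPM in siPDCD4 and 0.678 ± 0.102 TPM in siCT. The 7 ligands together came to 418, 393 and 389.7 TPM in siPDCD4 and 322, 339 and 278 TPM in siCT, where replicate 3 was the lowest control. AREG held between 77.8% and 78.6% of this sum in siPDCD4 and 72.9%, 74.0% and 77.9% of it in siCT, so that only the control replicate 3 reached the siPDCD4 range. The 3 receptors came to 72.8 ± 7.77 TPM in siPDCD4 and 69.7 ± 3.84 TPM in siCT.

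**Figure D1:**
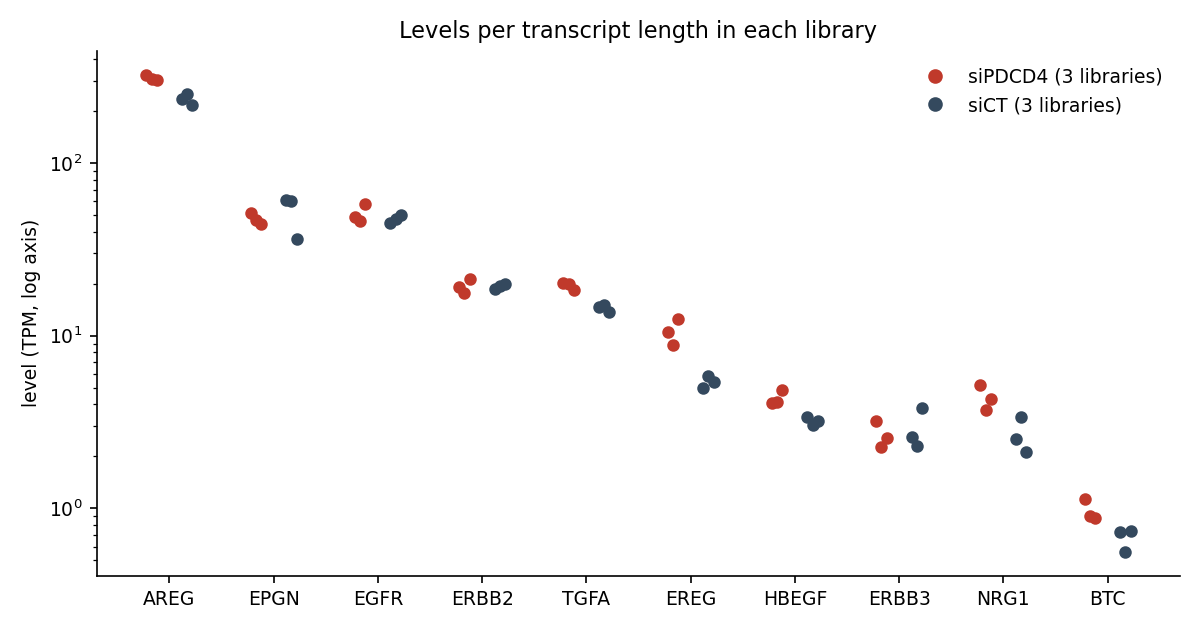
Level of each gene in TPM (y axis, log scale) in the 3 siPDCD4 and 3 siCT libraries (1 point per library), with genes on the x axis in the order of their siCT mean. AREG stands above all others, between 217 and 325 TPM, and BTC below all others, between 0.56 and 1.14 TPM.

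The question was then whether depletion of PDCD4 went along with other levels of these genes. EREG, which encodes epiregulin, rose about 1.94-fold and was the only one of the 10 past a false discovery rate (FDR) of 5% over all genes tested. In 6 of the 7 ligand genes every siPDCD4 library lay above every siCT library, EPGN being the exception, while in all 3 receptor genes the groups overlapped. Of 13047 genes tested 0.429% passed the FDR of 5% and 0.169% passed with a higher level in siPDCD4, and 6.81% had every siPDCD4 library above every siCT library. The median log2 fold change was 0.42 over the 7 ligands and -0.02 over the 3 receptors, and -0.01 over all genes tested. At an unadjusted p under 0.05 stood 5 of the 10 genes (EREG, AREG, TGFA, NRG1 and HBEGF), all higher in siPDCD4, where 8.62% of all genes did in either direction and 4.1% with a higher level. Whether ligands and receptors differed from each other was not tested.

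EREG had 44.4, 37.7 and 53.9 CPM in siPDCD4 against 22.2, 24.1 and 23.9 CPM in siCT. The lowest siPDCD4 library, replicate 2, was thus well above the highest control, and the 3 siPDCD4 libraries varied more among themselves (45.4 ± 8.15 CPM) than the 3 controls (23.4 ± 1.05 CPM, SD, n = 3 each). The log2 fold change was 0.95 ± 0.14 (SE), with a 95% confidence interval from 0.65 to 1.25 and an adjusted p of 0.015 in edgeR. These values rest on 610 to 815 estimated counts in siPDCD4 and 275 to 477 in siCT. The average effective transcript length of EREG was 3787, 4370 and 3608 bases in siPDCD4 and 4003, 3859 and 3586 bases in siCT. Its main transcript, EREG-201, had an SD of 0.67 TPM in siPDCD4 and 0.41 TPM in siCT. The part of this length in the spread of the gene was not tested. EREG passed in all 8 other analyses of the 6 libraries, but with a library left out it passed in 2 of 6. Its adjusted p in edgeR was 0.0619, 0.0545 and 0.0568 without siCT replicates 1, 2 and 3 and 0.0644 without siPDCD4 replicate 1, and its log2 fold change stayed between 0.82 and 1.07 in these 6 analyses.

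AREG, the most abundant ligand gene, had 365, 348 and 347 CPM in siPDCD4 against 275, 275 and 255 CPM in siCT. TGFA, which encodes transforming growth factor alpha, had 77.3, 77.2 and 72.2 CPM in siPDCD4 against 58.9, 56.5 and 55.0 CPM in siCT. In both genes the gap between the groups was wider than the spread within either, and the difference amounted to about a 1.32-fold and a 1.33-fold higher level. The log2 fold changes were 0.40 ± 0.08 for AREG (95% interval 0.23 to 0.57) and 0.41 ± 0.09 for TGFA (0.22 to 0.60), with adjusted p-values of 0.0624 and 0.0893 in edgeR, and so neither was called. AREG passed in 5 of 8 other analyses of all 6 libraries and TGFA in 2, and neither gene passed in any of the 6 analyses that left out a library. With DESeq2, which called 1.31% of the genes it gave an adjusted p and 0.564% as higher in siPDCD4, 3 of the 10 genes passed, namely EREG (2.65e-07), AREG (0.000112) and TGFA (0.00496).

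NRG1, which encodes neuregulin 1, had 18.2, 13.1 and 15.2 CPM in siPDCD4 against 9.15, 11.5 and 7.76 CPM in siCT. The groups did not overlap, and its log2 fold change of 0.71 ± 0.19 was second to that of EREG among the 10 genes, with a 95% interval from 0.30 to 1.12. It did not pass (adjusted p = 0.21 in edgeR), and without siCT replicate 3, its lowest control, the log2 fold change was 0.59. Without the correction for transcript length NRG1 passed (adjusted p = 0.0112 in edgeR), its log2 fold change then being 0.79. The gene's average effective transcript length, weighted by Salmon's estimates, was 3071, 3727 and 3050 bases in siPDCD4 and 3221, 2712 and 3377 bases in siCT, and 5 of its 35 listed transcripts passed the filter on low counts.

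HBEGF and BTC were low. HBEGF, the gene of heparin-binding EGF, had 8.73, 8.91 and 10.4 CPM in siPDCD4 against 7.49, 6.37 and 7.14 CPM in siCT. BTC, the gene of betacellulin, had 2.82, 2.25 and 2.21 CPM in siPDCD4 against 1.90, 1.36 and 1.92 CPM in siCT, from 26 to 44 estimated counts in a library. The groups did not overlap in either gene, although those of BTC did in CPM without length correction. The log2 fold changes were 0.42 ± 0.17 for HBEGF (adjusted p = 0.494) and 0.50 ± 0.29 for BTC (adjusted p = 0.747, both in edgeR), and neither passed in any other analysis. For BTC the interval ran from -0.15 to 1.14, so at this depth neither no difference nor a doubling was set apart.

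EPGN, the gene of epigen, was the one ligand gene whose groups overlapped. It had 88.4, 80.2 and 77.4 CPM in siPDCD4 against 108.9, 101 and 65.3 CPM in siCT, so that all 3 siPDCD4 libraries fell between the control replicates. The log2 fold change was -0.16 ± 0.17 (95% interval -0.54 to 0.21, adjusted p = 0.914 in edgeR). The low control was replicate 3, the library that stood apart, and without it the log2 fold change was -0.36, with an adjusted p of 0.184 in edgeR. Without the correction for transcript length the log2 fold change was -0.05. That of the main transcript, EPGN-202, was -0.01 ± 0.16. EPGN passed in 0 of the 14 other analyses.

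**Figure D2:**
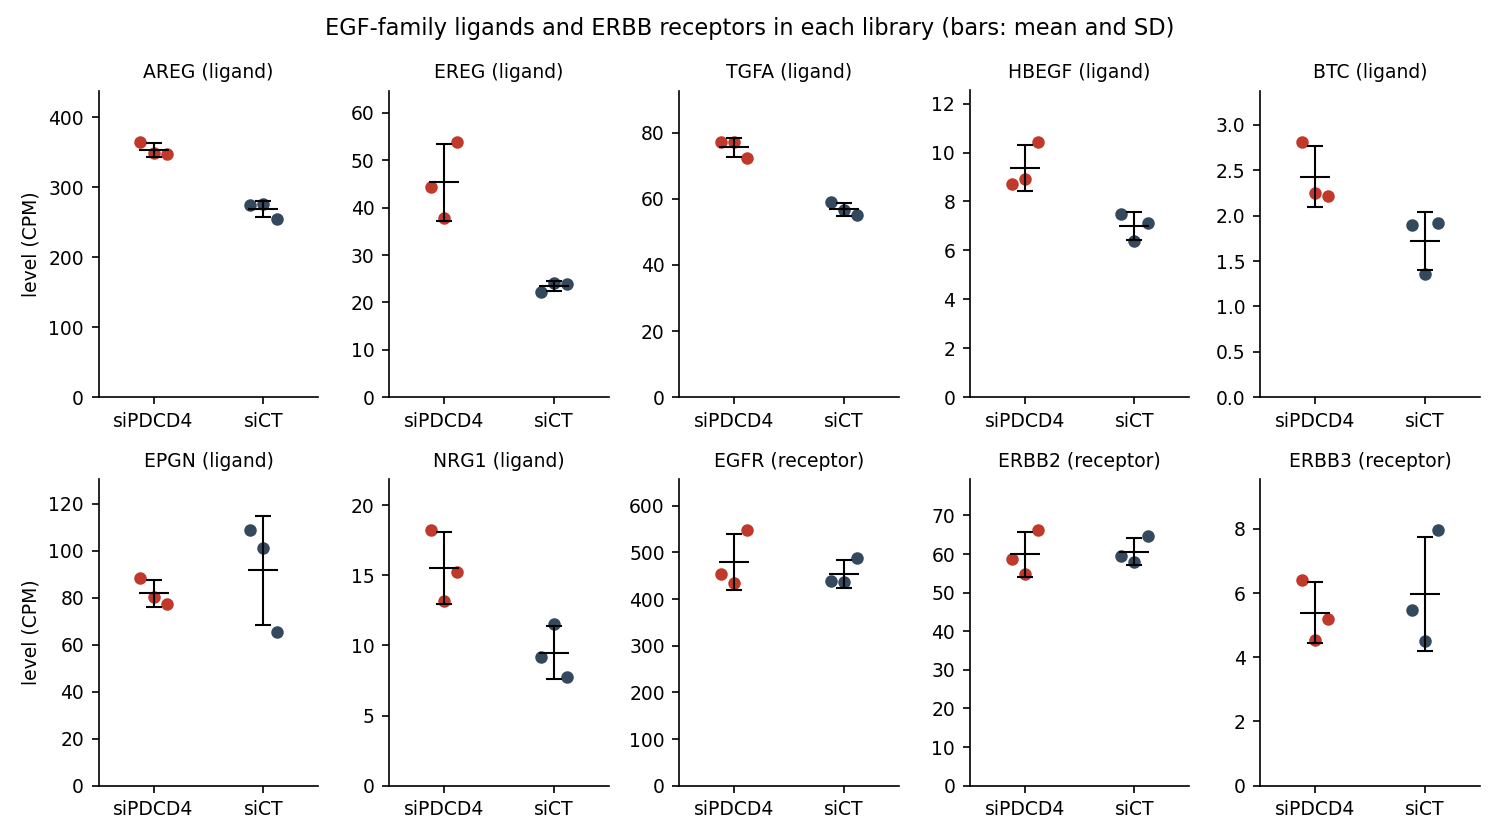
Level of each gene in CPM (y axis, from 0) in the siPDCD4 and siCT libraries (x axis, 1 point per library), and black marks for group mean and SD (n = 3). In AREG, EREG, TGFA, HBEGF, BTC and NRG1 all siPDCD4 points lie above all siCT points, and in EPGN, EGFR, ERBB2 and ERBB3 they overlap.

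None of the 3 receptor genes was called. EGFR had 453, 435 and 548 CPM in siPDCD4 against 438, 436 and 489 CPM in siCT, a log2 fold change of 0.08 ± 0.10 with a 95% interval from -0.15 to 0.30. ERBB2 had 58.6, 54.8 and 66.2 CPM in siPDCD4 against 59.4, 58.0 and 64.6 CPM in siCT, a log2 fold change of -0.02 ± 0.10 with an interval from -0.24 to 0.21. In both genes replicate 3 of either group was the highest, and the intervals exclude a rise of the size seen in EREG. The adjusted p-values were 0.955 for EGFR and 0.989 for ERBB2 in edgeR. ERBB3 was much lower, with 6.41, 4.54 and 5.20 CPM in siPDCD4 against 5.47, 4.52 and 7.96 CPM in siCT. Its log2 fold change of -0.13 ± 0.25 had an interval from -0.68 to 0.43 (adjusted p = 0.972 in edgeR). None of the 3 receptors had a settled sign. That of ERBB3 turned to 0.11 without siCT replicate 3, that of ERBB2 to 0.029 without the same library and to 0.042 without siPDCD4 replicate 2, and that of EGFR to -0.022 without siPDCD4 replicate 3.

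**Figure D3:**
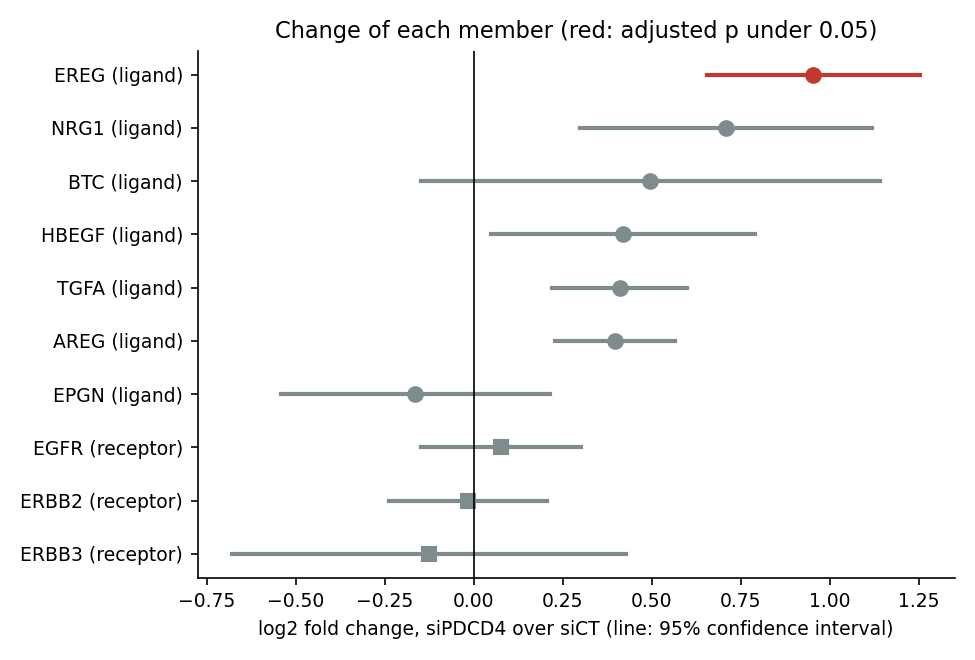
Log2 fold change of siPDCD4 over siCT (x axis) for each gene (y axis), with its 95% confidence interval as a line, ligands as circles and receptors as squares, and the gene past an FDR of 5% in red. EREG lies at 0.95, the other ligands apart from EPGN between 0.40 and 0.71, and the receptors between -0.13 and 0.08.

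At the level of transcripts, 38 of the 132 listed transcripts of these genes passed the filter and were tested together with all others. Of 47375 transcripts edgeR called 0 (0.0%), with 1473 (3.11%) at an unadjusted p under 0.05, and DESeq2 called 374 (0.643% of those given an adjusted p). Among the 38 transcripts 6 had an unadjusted p under 0.05 in edgeR and DESeq2 called 2, EREG-201 and AREG-201. In 10 of the 38 every siPDCD4 library lay above every siCT library and in 1 below, where 5.1% of all transcripts tested lay above and 4.86% below. Transcripts of a gene share reads and are not independent of each other.

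EREG, AREG, TGFA and HBEGF were each carried by 1 coding transcript in both groups. EREG-201 held 97.8% ± 1.61 of the counts of EREG in siPDCD4 and 96.9% ± 2.13 in siCT (SD, n = 3), and AREG-201 held 97.8% ± 0.321 of those of AREG in siPDCD4 and 97.7% ± 0.283 in siCT. TGFA-201 held 96.3% ± 1.67 in siPDCD4 and 96.6% ± 0.589 in siCT, and HBEGF-201 held 97.0% ± 2.09 in siPDCD4 and 94.6% ± 4.70 in siCT. The level of EREG-201 was 8.70, 8.70 and 9.86 TPM in siPDCD4 against 4.49, 4.93 and 4.12 TPM in siCT, a log2 fold change of 1.00 ± 0.11 (adjusted p = 0.255 in edgeR). NRG1 was more divided. Its most used transcript, which starts at position 32548267 of chromosome 8, held 47.2% ± 8.22 of its counts in siPDCD4 and 46.4% ± 5.89 in siCT, and the next, which starts at position 32548311, held 18.1% ± 6.80 in siPDCD4 and 19.0% ± 3.40 in siCT. Both were higher in all siPDCD4 libraries, with log2 fold changes of 0.82 ± 0.28 and 0.77 ± 0.37 that did not pass (adjusted p = 1.00 in edgeR for both).

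EGFR was made up almost wholly of a pair of coding transcripts that begin at different places. EGFR-201 starts at position 55019017 of chromosome 7 and EGFR-205 at position 55109723, in the first intron of EGFR-201. EGFR-201 had 25.0, 23.5 and 28.9 TPM in siPDCD4 against 21.8, 19.7 and 19.8 TPM in siCT. EGFR-205 had 17.7, 16.7 and 19.7 TPM in siPDCD4 against 16.6, 21.5 and 20.3 TPM in siCT. The groups did not overlap for the longer form and overlapped for the shorter, and the share of EGFR-201 in the counts of the gene was 57.4% ± 0.166 in siPDCD4 and 49.9% ± 4.60 in siCT (SD, n = 3). Replicate 1 of siCT, at 55.2%, was closer to the siPDCD4 libraries than to the other controls, at 46.9% and 47.6%. The log2 fold changes were 0.32 ± 0.12 for EGFR-201 (95% interval 0.03 to 0.62) and -0.12 ± 0.11 for EGFR-205 (-0.38 to 0.15). Neither passed, with unadjusted p-values of 0.0368 and 0.318 and an adjusted p of 1.00 for both in edgeR, and the difference in share was not tested by itself.

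**Figure D4:**
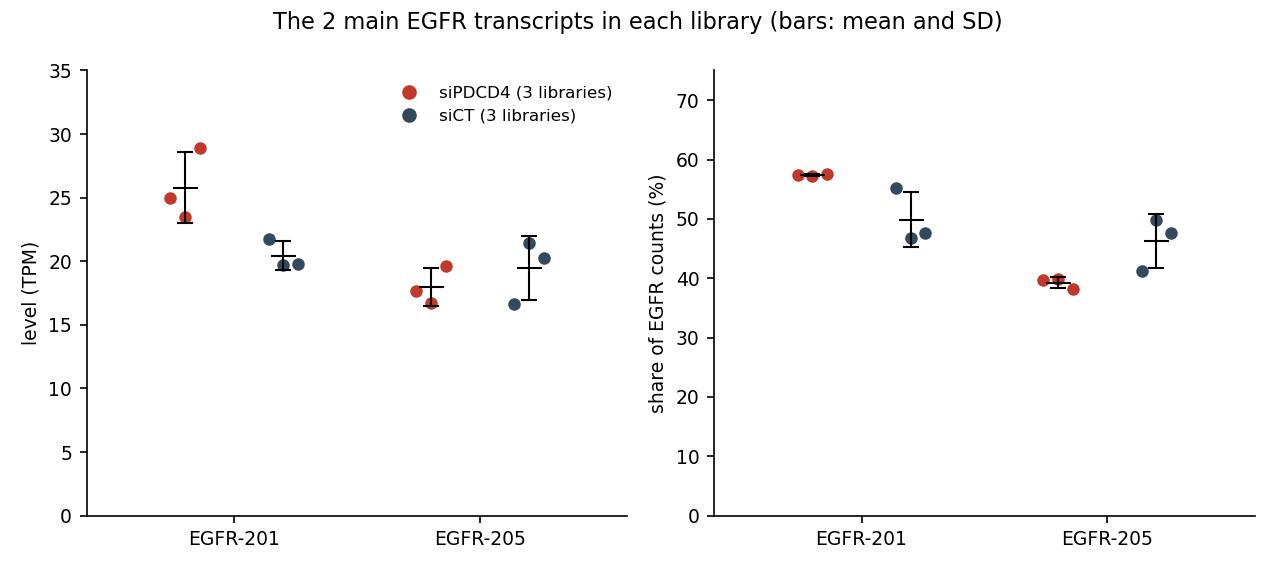
Level in TPM (left, y axis from 0) and share of all EGFR counts in percent (right, y axis from 0) of EGFR-201 and EGFR-205 in each siPDCD4 and siCT library (a point for each library), where black marks give mean and SD (n = 3). EGFR-201 lies between 23.5 and 28.9 TPM in siPDCD4 and between 19.7 and 21.8 TPM in siCT, and the ranges of EGFR-205 overlap.

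In the rest of the pathway no gene was called. Lists were drawn up by role, not by how a gene moved, but with earlier results of these data known. Of 76 tested genes in 4 lists, none passed the FDR of 5% in edgeR, 10 had an unadjusted p under 0.05 where 8.62% of all genes did, and DESeq2 called 0. Directions were even, with 38 genes above and 38 below a log2 fold change of 0. Of the 5 remaining genes of the family, ERBB4 and NRG3 had 0 counts in every library, EGF had at most 4 and NRG2 at most 14. NRG4, the only one to be tested, averaged 2.15 TPM in siPDCD4 and 2.79 TPM in siCT, near the level of ERBB3, and stood at -0.34 ± 0.40 on the log2 scale (adjusted p = 0.936 in edgeR). ERBB4 was thus not detectable at this depth.

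Of 16 genes for the maturation and release of ligands 15 were tested, with 4 above and 11 below 0 and a median log2 fold change of -0.06. The main shedding proteases ADAM17 and ADAM10 had -0.02 ± 0.11 and -0.11 ± 0.08. The members with the smallest p were the protease ADAM9 at -0.26 ± 0.08 (252.5, 251 and 272 CPM in siPDCD4 against 313, 304 and 312 CPM in siCT), the proprotein convertase PCSK7 at -0.29 ± 0.09 and the metalloprotease inhibitor TIMP3 at -0.24 ± 0.08. Their adjusted p-values in edgeR were 0.261, 0.347 and 0.383. In the whole list 4 of the 15 tested genes lay below every control in each siPDCD4 library and 1 lay above, where 7.14% of all genes lay below and 6.81% above.

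Among 30 adaptors and relay proteins downstream of the receptors the median log2 fold change was 0.04, with 20 above and 10 below 0. The exchange factor SOS2, the kinase MAP2K1 (MEK1), which activates ERK, and the adaptor GRB2 had the smallest p, at -0.29 ± 0.10, -0.22 ± 0.09 and -0.22 ± 0.09, with adjusted p-values between 0.405 and 0.5 in edgeR. Without the correction for transcript length their log2 fold changes were -0.16, -0.25 and -0.02. Among 30 genes for the inhibition and turnover of the receptors the median was -0.01, with 14 above and 16 below 0. LRIG1, an inhibitor that promotes the breakdown of ERBB receptors, had 0.62 ± 0.24 (18.8, 11.04 and 18.4 CPM in siPDCD4 against 13.4, 9.73 and 8.04 CPM in siCT, which overlap), the ubiquitin ligase CBL, which marks active EGFR for degradation, had -0.21 ± 0.09, and ERRFI1, an inducible inhibitor of the EGFR kinase, had 0.29 ± 0.12. Their adjusted p-values in edgeR lay between 0.483 and 0.536. For LRIG1 the log2 fold change was 0.30 without the correction for transcript length and 0.47 without siCT replicate 3, its lowest control.

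**Figure D5:**
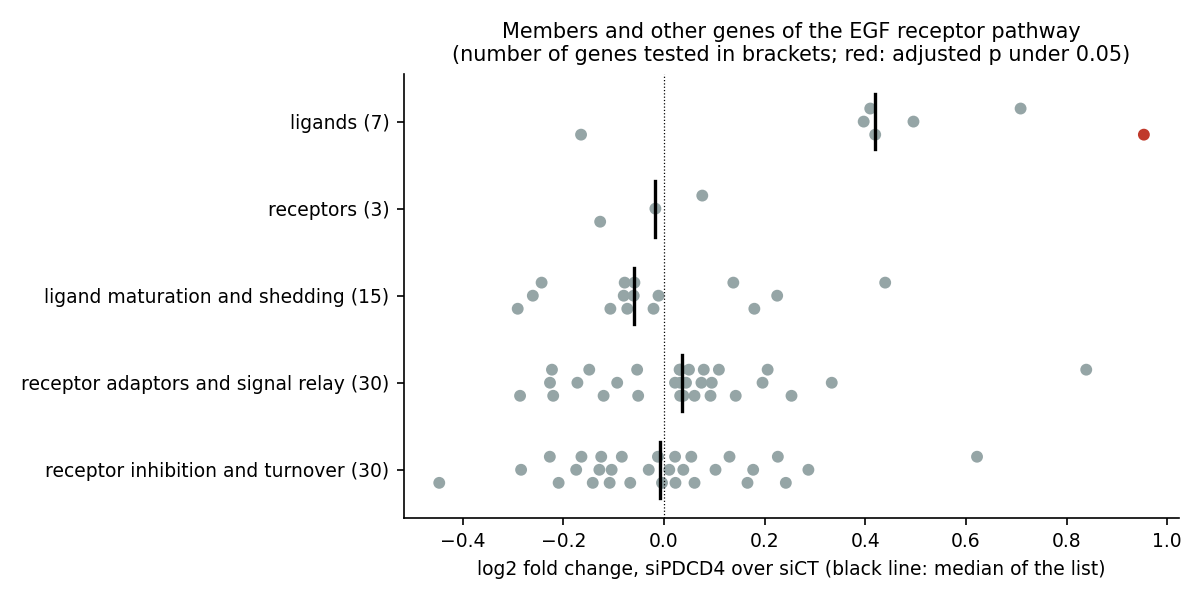
Log2 fold change of siPDCD4 over siCT (x axis) for the tested genes of 5 lists (y axis, each gene a point, spread in height for legibility), a black line at the median of each list and genes past an FDR of 5% in red. The median is 0.42 for the ligands and between -0.06 and 0.04 for the other 4 lists.

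None of the tested genes around the clustered ligand genes was called. Within 1 Mb on either side of the 4 clustered ligand genes, 10 further genes were tested, among them CXCL8, CXCL1, MTHFD2L and G3BP2. Their log2 fold changes lay between -0.74 and 0.17, 0 of the 10 passed the FDR of 5% in edgeR (0.429% of all genes), 0 had an unadjusted p under 0.05 (8.62% of all genes) and the lowest adjusted p was 0.65. In none of them did all siPDCD4 libraries lie above all controls (6.81% of all genes). In RASSF6 all lay below the controls (7.14% of all genes), at a log2 fold change of -0.41. The margin was slight, with 5.307 CPM in its highest siPDCD4 library and 5.313 CPM in its lowest control.

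The genes most like EREG across the 6 libraries were sought by the root mean square distance between log2 levels centred on each gene's own mean, without use of the groups. The 5 nearest were IQGAP2 (0.10), ALDH3A1 (0.12), TNFSF15 (0.14), STYK1 (0.14) and F2R (0.15). As genes chosen for this likeness all 5 were, like EREG, higher in length-corrected CPM in each siPDCD4 library than in any control, which is a description and no test. Their log2 fold changes lay between 0.80 for F2R and 1.27 for IQGAP2. ALDH3A1, an aldehyde dehydrogenase gene, averaged 49.2 CPM in siPDCD4 and 25.4 CPM in siCT and was the only one of the 5 among the genes past the FDR of 5%. It lost this call in all 6 analyses that left out a library (adjusted p between 0.0524 and 0.155 in edgeR) and in limma-voom (0.0686), and F2R passed in DESeq2 (0.00937), without the filter on low counts and with a replicate block. Without the length offset the log2 fold changes of IQGAP2 and STYK1 were 0.21 and 0.36. IQGAP2 had 31.0, 14.4 and 41 estimated counts in siPDCD4 and 22, 19.0 and 32 in siCT. Its average effective transcript length was 1173, 736 and 1114 bases in siPDCD4 and 1464, 1737 and 3401 bases in siCT. TNFSF15 had no more than 49.0 and STYK1 no more than 37 estimated counts in a library. Within the family AREG and TGFA were closest to each other, at a distance of 0.04, whereas EREG stood 0.31 from AREG and 0.61 from EPGN, its neighbour on the chromosome.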

How the data were processed

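Stranded total RNA libraries, 3 of siPDCD4 and 3 of siCT, were read from both ends over 75 bases. With Salmon (version not given in the sources used here) and GRCh38 transcripts the authors obtained an estimated count and a TPM value for each transcript, which they deposited by library. GENCODE release 44 (GRCh38) assigned 181244 of the 194142 transcripts to genes by their identifiers. The 12898 without a match, with 5.47% to 6.21% of a library's counts, were not used here. Counts were summed per gene and rounded. The deposited TPM values were summed per gene and used only to set levels of different genes side by side.

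The test was the robust quasi-likelihood F test of edgeR 4.0.16 under R 4.3.3 (TMM factors, filterByExpr, an offset for the average transcript length, group as the only factor), with Benjamini-Hochberg adjustment over all 13047 genes tested and a threshold of 5%. Transcripts were tested likewise without the offset. Confidence intervals follow from the SE and the degrees of freedom of the fit. Alternatives were DESeq2 1.42.0, limma-voom (limma 3.58.1), RLE and upper quartile factors, no length offset, other filters, a replicate block and each library left out. The tests were tried on simulated data. Tables and figures were made with Python 3.11.15, pandas 2.3.3 and matplotlib 3.10.9. The genes and the lists were chosen with earlier results of these data known. The genes named were PDCD4, the 10 of the family, the 3 with the smallest p in each other list where none passed, and the 5 nearest in level pattern to each family gene that passed. ADAM10, ADAM17, cell type markers and the neighbours on chromosome 4 were named after their values were seen.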

Additional observations from a re-analysis of the deposited data

How the results depend on the processing

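EREG kept its direction in all 14 other analyses. The number of genes past the FDR of 5% was 56, and 181 with DESeq2, 128 without the length offset, 108 without the filter on low counts and 99 at an FDR of 10%. It was between 17 and 40 with a library left out. Of the 10 family genes 1 passed, and 3 passed with DESeq2, 4 without the length offset, 2 without the filter, 2 with upper quartile factors and 3 at an FDR of 10%. With a library left out between 0 and 1 passed. Of the family transcripts 0 passed in edgeR and 2 in DESeq2, and none of the other pathway genes passed in any analysis. With a replicate block 102 genes and 2 family genes, EREG and AREG, passed. Libraries of the same number correlated in their deviations from the group means at 0.0717, 0.117 and 0.183. Those of different number lay between -0.193 and 0.102, the highest being siPDCD4 replicate 1 with siCT replicate 2. The labels do not say whether equal numbers mark pairs, and the main fit used group alone. Whether libraries of equal number share a batch was not tested. With a library left out the log2 fold change lay between -0.022 (without siPDCD4 replicate 3) and 0.14 for EGFR, between -0.084 and 0.042 (without siPDCD4 replicate 2; 0.029 without siCT replicate 3) for ERBB2, and between -0.30 and 0.11 (without siCT replicate 3) for ERBB3. Without the length offset that of ERBB3 turned to 0.056 and that of NRG4 to 0.015. The cause of these changes was not tested. Of 20 mean levels in TPM, 4 moved by more than 1 SD when CPM divided by length was used instead. BTC and ERBB3 had the largest SE of the 10 family genes, 0.29 and 0.25, and no more than 44 and 114 estimated counts in a library.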
